A study of Caenorhabditis elegans with 2 samples.

Results

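The genes described here are 5 microRNA (miRNA) genes of the mir-51 family of Caenorhabditis elegans, cel-mir-52, cel-mir-53, cel-mir-54, cel-mir-55 and cel-mir-56, out of 261 annotated nuclear miRNA genes and 46890 annotated nuclear genes of all kinds. They were selected by name, and every listed region whose summit lay within 5 kb of one of them was taken from 4 lists. The genes were proposed because regions had been seen beside them in these lists, so region positions, signal values and ranks are given as a description, with no test. The lists come from a chromatin immunoprecipitation and sequencing (ChIP-seq) study of CEH-9, a homeodomain protein, in whole L3 larvae of mixed sex. The strain, OP202, carries unc-119(ed3) III and the transgene wgIs202, from which CEH-9 is made with a GFP-FLAG tag at its C-terminus. There was 1 group of 2 libraries, biological replicates 1 and 3, with 1 technical replicate each, and no second genotype or treatment. Whole larvae were used, so strong binding in few cells and weak binding in many cannot be told apart. One label field calls both libraries input, whereas the assay and antibody fields name ChIP and ceh-9. The ChIP reading rests on those fields.

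A miRNA is a short RNA cut from a hairpin precursor. It guides an Argonaute protein to messenger RNAs, mostly by pairing of its bases 2 to 8, the seed, and lowers the output of those messages. Members of one family share a seed and can act on the same targets. In C. elegans the mir-51 family is needed in the embryo, where loss of the whole family leaves the pharynx unattached, and single members can be lost with little effect.

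The mature strands are shown because the seed is what defines the family, which the choice of regions did not use. Each was read from the WBcel235 genome (ce11) at the mature position annotated by Ensembl, and capitals mark bases 2 to 8.
cel-mir-52: cACCCGUAcauauguuuccgugcu
cel-mir-53: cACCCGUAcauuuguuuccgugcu
cel-mir-54: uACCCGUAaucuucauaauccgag
cel-mir-55: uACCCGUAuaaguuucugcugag
cel-mir-56: uACCCGUAauguuuccgcugag
The seed ACCCGUA was identical in all 5. After the seed the strands were compared position by position, with no gaps allowed. On that measure cel-mir-52 and cel-mir-53 were identical at 15 of 16 positions, whereas cel-mir-54 and cel-mir-55 were identical at 1 of 15. These were the most and the least alike pairs among the 5 genes. The next most alike, cel-mir-54 and cel-mir-56, were identical at 6 of 14. The strand with the family seed lay on the 5′ arm of the hairpin in cel-mir-52 and cel-mir-53 and on the 3′ arm in cel-mir-54, cel-mir-55 and cel-mir-56. The founding member, cel-mir-51, has the same seed on its 5′ arm and is not one of the 5 genes, but it neighbours cel-mir-53.

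The 5 genes form 3 loci. cel-mir-52 (WBGene00003280, chromosome IV, 14034008 to 14034107, plus strand) stands alone and overlaps an exon of WBGene00199919, a non-coding RNA gene of the opposite strand. cel-mir-53 (WBGene00003281, chromosome IV, 11027593 to 11027691, minus strand) overlaps no other annotated gene and lies 1480 bp upstream of cel-mir-51. The remaining genes are cel-mir-54 (WBGene00003282, chromosome X, 13144996 to 13145094), cel-mir-55 (WBGene00003283, 13144827 to 13144924) and cel-mir-56 (WBGene00003284, 13144691 to 13144787), all on the minus strand. They span 404 bp in an intron of F09A5.3, which runs the other way, and cel-mir-55 is overlapped on the plus strand by a further miRNA gene, cel-mir-55b.

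The stretches of 201 bases around the summit of the strongest region at each locus are printed because they carry the signal described next. They are plus-strand sequence of ce11, and capitals mark the longest run of purines (A or G) on either strand, which reads as C and T where the purines are on the minus strand.
Peak 5′ of cel-mir-52, chrIV:14033040-14033240: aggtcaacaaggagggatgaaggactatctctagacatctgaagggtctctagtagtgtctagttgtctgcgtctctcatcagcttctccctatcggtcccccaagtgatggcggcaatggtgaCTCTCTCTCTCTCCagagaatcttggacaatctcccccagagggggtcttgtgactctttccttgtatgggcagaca
Peak 5′ of cel-mir-53, chrIV:11027657-11027857: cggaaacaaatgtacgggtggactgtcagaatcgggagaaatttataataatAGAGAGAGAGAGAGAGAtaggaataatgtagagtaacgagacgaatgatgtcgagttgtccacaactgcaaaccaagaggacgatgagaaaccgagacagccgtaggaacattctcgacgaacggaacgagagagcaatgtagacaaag
Region 5′ of cel-mir-54, chrX:13145294-13145494: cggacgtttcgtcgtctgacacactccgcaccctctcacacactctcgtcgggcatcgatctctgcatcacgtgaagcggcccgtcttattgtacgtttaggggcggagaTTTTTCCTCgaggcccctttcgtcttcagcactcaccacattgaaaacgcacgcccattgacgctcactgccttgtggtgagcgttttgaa
The run was 14 bases long at cel-mir-52, 17 at cel-mir-53 and 9 at cel-mir-54. Runs as long were held by 14.5%, 6.88% and 62.5% of the 10489 pooled regions over the same window, where the median was 9 bases. At cel-mir-53 the run was a repeat of AG whose centre lay 40 bases from the summit, and the window also took in the 5′ end of the hairpin, with part of the mature strand. Its counterpart at cel-mir-52 was a repeat of CT, or AG on the minus strand, centred 30.5 bases from the summit. GC content was 51.2% at the cel-mir-52 peak, 44.3% at the cel-mir-53 peak and 55.2% at the cel-mir-54 region, against a median of 39.8% and quartiles of 35.8% and 44.3% over the pooled regions.

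The authors' reproducible set is their optimal list of 45 peaks, thresholded by the irreproducible discovery rate (IDR) and derived from both replicates. A peak in it need not be present in each replicate list, and 5 of the 45 had no replicate 3 summit within 200 bp. It held a peak within 5 kb of 2 of the 5 genes, cel-mir-52 and cel-mir-53, against 0.501% of all annotated genes and 1.53% of annotated miRNA genes. The miRNA share is 4 of 261 genes, and it includes these 2 and cel-mir-51, which is near the same peak as cel-mir-53. The 5 genes were chosen for such peaks, so nothing is read from that contrast. Signal values are the authors' column 7, which has no stated unit and ranks regions within a list only. The cel-mir-53 peak occupied chromosome IV from 11027599 to 11027914. At a signal value of 37.2 it ranked 15, with 14 peaks above it. Its summit lay 66 bp 5′ of the hairpin, in sequence with no annotated gene, and the peak covered 93 of the 99 bases of the gene. The same peak was 1645 bp 5′ of cel-mir-51, so both genes share it. The cel-mir-52 peak, also on chromosome IV (14032982 to 14033297), ranked 20 with a value of 35.0. Its summit lay 868 bp 5′ of the hairpin, in an exon of the non-coding RNA gene WBGene00201963 on the opposite strand. Both peaks had a q-value of 0.0189.

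No reproducible peak lay within 5 kb of cel-mir-54, cel-mir-55 or cel-mir-56, but the pooled list did hold a region there. It occupied chromosome X from 13145236 to 13145551, at rank 70 of 10489. Its signal value was 29.0 and its q-value 0.18. The weakest reproducible peak had 30.7. The summit lay 300 bp 5′ of cel-mir-54, 470 bp 5′ of cel-mir-55 and 607 bp 5′ of cel-mir-56, so the 3 genes shared the region, and it was inside the F09A5.3 intron.

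The pooled list holds background as well as peaks, and 28 of its 10489 regions had a q-value under 0.05. In it all 5 genes had a summit within 5 kb, against 62.1% of all genes and 70.9% of miRNA genes, and each had 3 regions. Because the X genes shared theirs, these were 9 different regions. At cel-mir-52 a second region, from 14033888 to 14034203, covered all 100 bases of the gene, with its summit inside the hairpin, a signal value of 24.2 and rank 228. The third lay 4717 bp 3′ of the gene, with 12.3 and rank 9244. At cel-mir-53 a region 2563 bp 5′ of the gene had a signal value of 23.4 at rank 289, with its summit in an exon of hrg-4, a haem transporter gene. Another, 2591 bp 3′ of it in an exon of alh-3, an aldehyde dehydrogenase family gene, had 14.8 at rank 4235. Near the X cluster the weaker pair had signal values of 15.6 at rank 3245, in the F09A5.3 intron, and 14.3 at rank 4930, in an exon of ttr-34, a gene of the transthyretin-related family. The median signal value of the pooled list was 14.1. Summits just inside the 5 kb limit lay between 2591 and 4717 bp from their gene, and the next ones outside it between 7278 and 9900 bp.

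**Figure D1:**
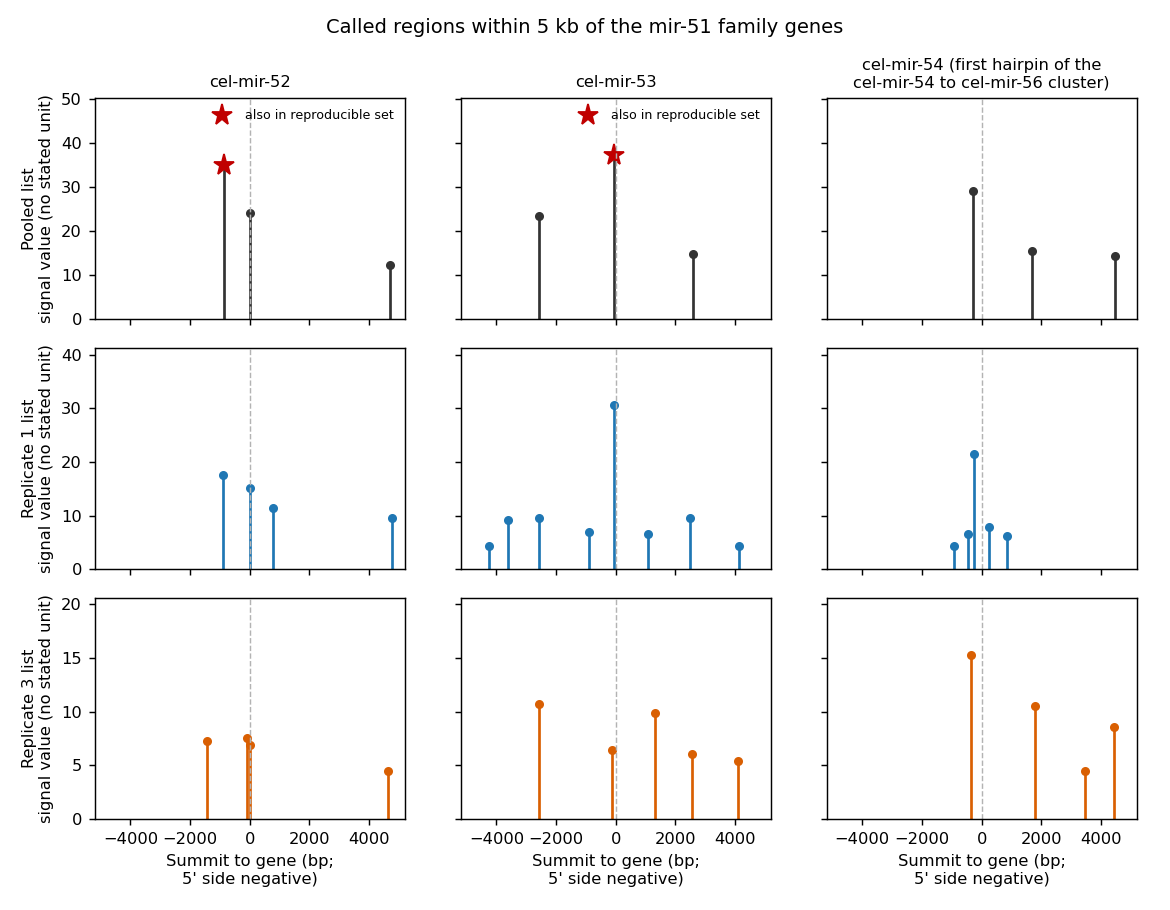
Signal value (column 7, no stated unit) of every region whose summit lay within 5 kb of cel-mir-52, cel-mir-53 and cel-mir-54, by distance from the summit to the nearest base of the gene (bp, 5′ side negative), with 1 row of panels for each list and stars for the authors' reproducible peaks. Each locus has its strongest pooled region on the 5′ side, at 868, 66 and 300 bp, and only at cel-mir-54 is that region also the strongest in replicate 3, at 15.2.

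The strongest pooled region lay on the 5′ side at all 3 loci, within 1000 bp of every one of the 5 genes. Among the 185 miRNA genes with a pooled region within 5 kb, the strongest lay 5′ of the gene at 88 (47.6%), and 5′ within 1000 bp at 19 (10.3%). These counts include the 5 genes. The strongest pooled signal values were 29.0 to 37.2 at the 5 genes, and 11.9 to 37.2 with a median of 15.3 at the 180 other miRNA genes with a region. The other genes at or above 29.0 were cel-mir-51 and cel-mir-55b, which share the regions already described, and cel-mir-8200 on chromosome V with 30.7, named after its value was seen. No miRNA gene had a higher value than cel-mir-53, and cel-mir-52 was below cel-mir-53 and cel-mir-51 only. The 5 genes were chosen for regions seen beside them in these lists, and they hold 3 strongest regions between them. Nothing is therefore read from these contrasts of place and value.

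**Figure D2:**
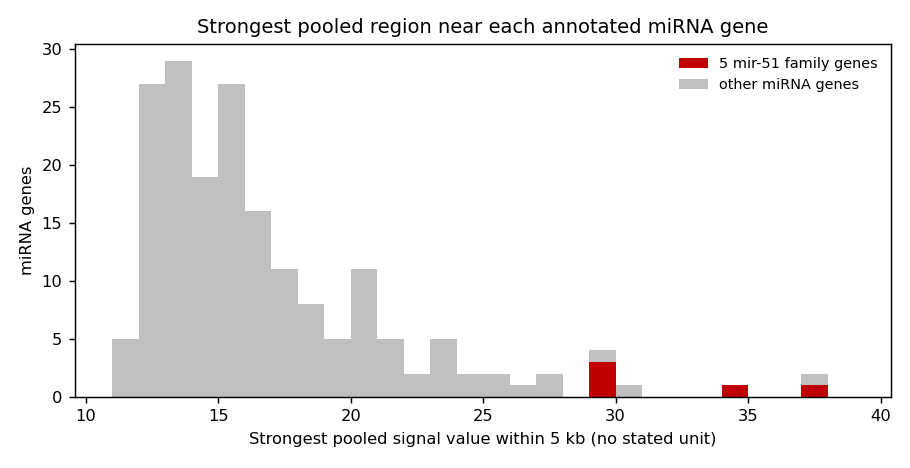
Number of annotated miRNA genes (vertical axis) by the signal value of the strongest pooled region within 5 kb (horizontal axis, no stated unit), with the 5 listed mir-51 family genes in red and 180 other miRNA genes in grey. The grey genes include cel-mir-51, a family member at 37.2, and cel-mir-55b at 29.0, which share regions with red genes. The red genes lie at 29.0, 35.0 and 37.2, where the median of the grey genes is 15.3. The red genes were chosen for regions seen in these lists, so the contrast is description only.

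The replicate lists held 30000 regions each and differed in how they ranked the 3 loci. All 5 genes had a summit within 5 kb in replicate 1, against 95.1% of all genes and 93.1% of miRNA genes. All 5 also had one in replicate 3, against 90.3% of all genes and 95.8% of miRNA genes, and both counts are near their backgrounds. In replicate 1 the region beside each gene reached a q-value of 0.00134, and 5 of 5 genes had one under 0.05, against 26.4% of all genes and 36% of miRNA genes. In replicate 3 none of the 5 did, against 0.269% of all genes and 0.383% of miRNA genes. In the pooled list 2 of the 5 did, against 0.343% of all genes and 1.15% of miRNA genes. That miRNA share is 3 of 261 genes: cel-mir-52, cel-mir-53 and cel-mir-51, which shares the cel-mir-53 peak. Because the genes were chosen for regions in these lists, nothing is read from these contrasts either.

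The cel-mir-53 peak was matched, by a summit within 200 bp, to rank 24 of replicate 1 with a signal value of 30.6, and that rank was 11 when the 30 mitochondrial regions of the list were left out. In replicate 3 its match had a signal value of 6.48 at rank 12951, with a q-value of 0.876. This peak was thus high in one library and near the middle of the list in the other. Replicate 3 had 5 regions within 5 kb of cel-mir-53, and those with the highest values were the hrg-4 region, with 10.7 at rank 1645, and one from 11026069 to 11026452, with 9.92 at rank 2623. The summit of the region at rank 2623 lay 1332 bp 3′ of cel-mir-53 and 149 bp 5′ of cel-mir-51. The remaining replicate 3 regions had 6.10 at rank 15780 (2548 bp 3′) and 5.41 at rank 20670 (4089 bp 3′). Replicate 1 held 8 regions within 5 kb of cel-mir-53, and the matched one, 51 bp 5′ of the gene, stood well above the rest. On the 5′ side the others had 6.90 at rank 10286 (902 bp, in an exon of hrg-5), 9.59 at rank 3506 (2565 bp), 9.21 at rank 4097 (3626 bp) and 4.31 at rank 26809 (4255 bp). On the 3′ side they had 6.60 at rank 11508 (1098 bp), 9.63 at rank 3448 (2504 bp) and 4.43 at rank 25735 (4150 bp).

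The cel-mir-52 peak was matched to rank 184 of replicate 1, with a signal value of 17.5, and rank 163 among nuclear regions. Replicate 3 had no summit within 200 bp of it, and the nearest was 553 bp away. It was 1 of 5 reproducible peaks with no such match in replicate 3. The region over the hairpin was matched in both, at rank 374 in replicate 1 (15.2) and rank 11326 in replicate 3 (6.89). Each replicate list held 4 regions within 5 kb of cel-mir-52. In replicate 1 the matched region lay 883 bp 5′ of the gene, and the weaker ones 3′ of it had 11.4 at rank 1655 (791 bp) and 9.48 at rank 3660 (4776 bp). The highest value in replicate 3 was 7.53 at rank 8160, with a summit 108 bp 5′ of the gene in WBGene00195705, a non-coding RNA gene. That region covered 84 of the 100 bases of cel-mir-52. Its summit was also within 200 bp of the pooled summit in the hairpin, but the nearer summit was taken as the match. The other replicate 3 regions had 7.27 at rank 9339 (1421 bp 5′), 6.89 at rank 11326 (11 bp 3′) and 4.44 at rank 29606 (4651 bp 3′).

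The region 5′ of the X cluster, which is not in the reproducible set, ranked high in both libraries. It was matched to rank 74 of replicate 1, with a signal value of 21.4, and to rank 109 of replicate 3, with 15.2 and a q-value of 0.253. Among nuclear regions of replicate 1 its rank was 55. Among the 2000 strongest pooled regions, 5 others were at least as high in both replicates, a count made after the values were seen. All 5 had a pooled rank of 45 or better, 45 being the size of the reproducible set. For the cel-mir-53 peak the same count was 10, all 10 likewise at rank 45 or better, although its replicate 3 rank was 12951. A low count therefore does not require a high rank in both replicates. Of the 45 reproducible peaks, 9 had a replicate 3 rank of 109 or better. Within replicate 3, 2 of the 250 miRNA genes with a region had a higher strongest value than the cluster genes, against 44 for cel-mir-53 and 160 for cel-mir-52. Within replicate 1, of 243 such genes, 4 were above the cluster genes, 10 above cel-mir-52 and none above cel-mir-53. These places are description only, because the genes were chosen from these lists. Replicate 1 held 5 regions within 5 kb of the cluster, among them one from 13144601 to 13144904 over the hairpins of cel-mir-55 and cel-mir-56, with a signal value of 7.80 at rank 7230. Its summit lay inside cel-mir-56 and 243 bp 3′ of cel-mir-54. Measured from cel-mir-54, the matched region lay 262 bp 5′, and the weaker ones had 6.60 at rank 11493 (468 bp 5′), 4.25 at rank 27314 (939 bp 5′) and 6.15 at rank 13704 (849 bp 3′). Replicate 3 held 4 regions, the matched one 364 bp 5′ of cel-mir-54. The others lay 3′ of it, with 10.5 at rank 1776 (1795 bp), 4.49 at rank 29183 (3458 bp) and 8.62 at rank 4861 (4420 bp). All regions of both lists at this locus were within 5 kb of cel-mir-54, cel-mir-55 and cel-mir-56 alike. The remaining pooled regions of the cluster were each matched in replicate 3, at ranks 1776 and 4861, and neither had a replicate 1 summit within 200 bp.

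**Figure D3:**
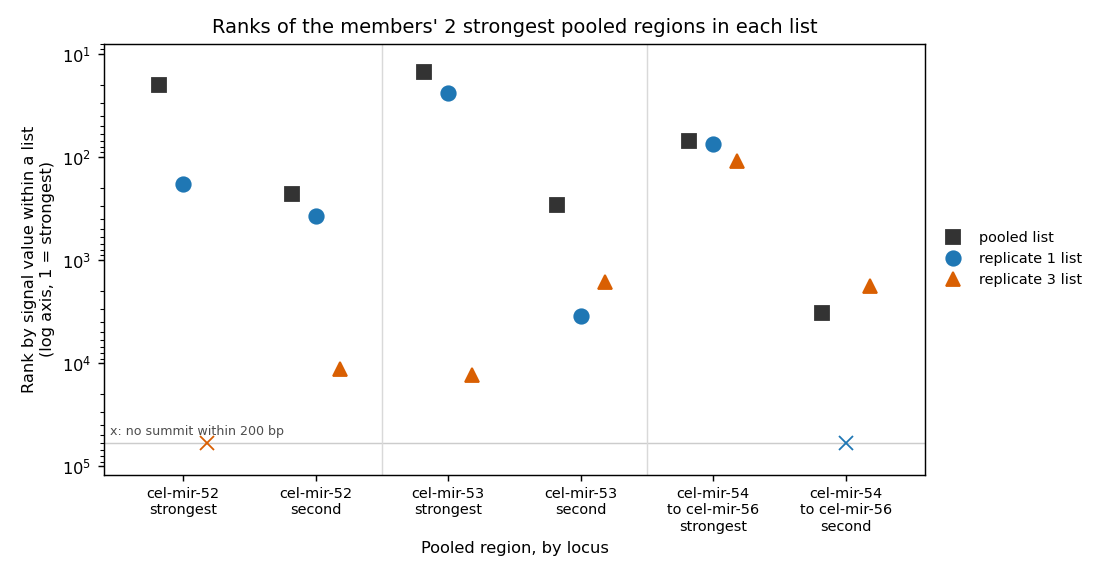
Rank by signal value within the pooled, replicate 1 and replicate 3 lists (log axis, 1 is the strongest) of the 2 strongest pooled regions at each locus, with crosses where a replicate has no summit within 200 bp. The strongest region of the X cluster lies at 70, 74 and 109, whereas that of cel-mir-53 lies at 15, 24 and 12951 and that of cel-mir-52 at 20 and 184 with no match in replicate 3. The lists differ in length, so ranks show the place within each list only.

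Over the 9 pooled regions, 7 had a match in replicate 1, 8 in replicate 3 and 6 in both. The pooled list was called on both libraries together and all lists on one control alignment, so a match is no independent evidence of binding. Whether the uneven support comes from depth or library quality was not tested. Peaks with replicate ranks most like those of the cel-mir-53 peak were sought among the other reproducible peaks, by the sum of absolute differences in log10 rank over the 2 libraries. The closest was a peak on X nearest to K03A1.9, with ranks 28 and 15348 and a difference of 0.141. The next was a peak on II 41 bp from sls-2.1, a spliced leader RNA gene, with ranks 29 and 10846 and a difference of 0.159. The cel-mir-52 peak has no rank in replicate 3 and could not be compared.

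CEH-9 has a homeodomain, and homeodomains often bind words with a TAAT core. Within 100 bp of the summits of the 9 pooled regions, on both strands, TAATTA occurred in 0 regions and TAATTG in 1, the weak X region at rank 3245. Of all pooled regions 6.57% held TAATTA and 12.8% held TAATTG. The word GAGAGA occurred in 3 of the 9, against 15.9% of all pooled regions: in the cel-mir-53 and cel-mir-52 peaks and in the alh-3 region. A word is only a run of letters, and its absence from a window says nothing about the factor. The genes and the words were chosen with earlier results of these data known, so nothing is read from these shares.

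Genes of miRNA processing and function, with genes of the heterochronic pathway of developmental timing, were counted in the same way. All 16 genes of the list were found in the annotation: drsh-1 and pash-1 of the nuclear Microprocessor, the Dicer gene dcr-1, the Argonautes alg-1 and alg-2, their partners ain-1 and ain-2, the cofactor nhl-2, the exonuclease xrn-2, the helicase cgh-1, the miRNAs lin-4 and let-7, the heterochronic genes lin-41, lin-28 and hbl-1, and cdh-3, a cadherin gene linked to the mir-51 family. None had a reproducible peak within 5 kb. In the pooled list 15 of 16 had a region, against 62.1% of all genes, and lin-28 had none. The share of all genes covers genes of every kind, whereas most of the list codes for protein. Gene length was not matched, and a longer gene has more sequence within reach of a summit, so nothing is read from that gap. Only ain-1, which encodes a GW182-like partner of Argonaute, was within 5 kb of one of the 500 strongest pooled regions, against 5.21% of all genes. That region had a signal value of 23.7 at rank 260 and lay 931 bp from the gene. A count of 1 in 16 genes is near the share of all genes, so nothing is read from it.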

How the data were processed

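ChIP-seq region lists of 2 CEH-9 libraries and their pool were used, on build ce11. Per the deposited descriptions, the authors called regions on each replicate and on the pooled replicates against a control alignment, and derived the reproducible set from these lists. The sources used here name no aligner, caller or IDR threshold. Column 7, a signal value with no stated unit, and column 9, the −log10 of a q-value, were used as deposited by the authors. Read depth is unknown. The pooled list and both replicate lists hold background as well as peaks, per the deposited descriptions.

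Distances ran from the summit to the nearest base of the Ensembl release 115 gene. Equal signal values shared the best rank. Regions matched when summits lay within 200 bp. The lists on ce10 were not used. Scripts ran in Python 3.11.15 with pandas 2.3.3, numpy 2.4.6 and matplotlib 3.10.9. Members, word list and gene list were chosen with earlier results of these data known, and no test was made. The rule for named genes took the 5 members, genes at or nearest their pooled regions, listed processing genes within 5 kb of the 500 strongest pooled regions, and the 2 reproducible peaks most alike in replicate ranks. Outside it, hrg-5, WBGene00195705 and the remaining listed genes were named after their values were seen. The gene let-7 was matched through its WormBase identifier in RefSeq.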

Additional observations from a re-analysis of the deposited data

How the results depend on the processing

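Of 71 alternative values, 55 kept the reported value or stayed within 1.5 times a reported count. Some of these could not have moved, so the 55 is no measure of stability. A window of 2000 bp cannot alter a strongest value whose summit lies within 1000 bp. Likewise, a wider window cannot change a count of 5 of 5 genes. With only regions of a q-value under 0.05, the genes with a region within 5 kb numbered 2 in the pooled list and 0 in replicate 3, and the regions numbered 2 in the pooled list, 5 in replicate 1 and 0 in replicate 3. A window of 2000 bp left 5 regions in the pooled list, 11 in replicate 1 and 7 in replicate 3, and one of 10000 bp gave 23 in replicate 3. The strongest signal value ranged over the single replicates from 7.53 to 17.5 at cel-mir-52, from 10.7 to 30.6 at cel-mir-53 and from 15.2 to 21.4 at cel-mir-54 to cel-mir-56, on scales that need not match the pooled one, and the lower value was that of replicate 3 each time. GAGAGA was present in 7 of the 9 regions when the whole region was searched, where 22.7% of all pooled regions held it. Within 50 bp of the summit it was present in 2, with no share of all pooled regions beside it. Nothing is read from these counts, because genes and words were chosen with earlier results known. Matching and the other words kept their values or stayed within 1.5 times. Distances to the 5′ end of the gene were equal to the reported ones by construction. Each strongest summit lay 5′ of its gene, where the 5′ end is the nearest base. No paired analysis was possible because the labels give 1 group. Read depth is unknown, and its part in the replicate 3 values was not tested.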
